A study of Mus musculus with 4 samples.

Results

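The genes described here are radixin (Rdx) and moesin (Msn), which belong to the ezrin, radixin and moesin (ERM) family, and the genes of 3 membrane proteins linked to that family or to its ligands: Cd44, podoplanin (Pdpn) and layilin (Layn). They were chosen by symbol as cortical linkers and their membrane partners, with their ratios in this comparison already known. The choice took in 5 genes of the 6327 that had a value on all 4 arrays, and 7 of the 14030 probes with exactly 1 gene symbol. All 5 genes were measured on every array, with 2 probes each for Rdx and Layn and 1 probe each for Msn, Cd44 and Pdpn. The values below are therefore a description of these genes and are given without a test.

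Each of 4 two-colour arrays compared RNA of NIH3T3 cells transfected with Erbb2, which overexpress this receptor tyrosine kinase, with RNA of untransfected NIH3T3 cells with normal Erbb2 expression. NIH3T3 is a long-established line of mouse embryonic fibroblasts. RNA of the transfected line was labelled with Cy5 on arrays 1 and 2, and with Cy3 on the swapped arrays 3 and 4. The arrays are technical replicates, so there was 1 sample per line, the n of 4 counts arrays, and each error covers the spread between arrays only. The labels do not say whether the transfected line was 1 clone or a pool, nor which promoter drove Erbb2. Effects of Erbb2 cannot be told apart from other ways in which the lines differ. No probe was named for Erbb2, so its level was not analysed here.

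The deposited values are log2 ratios, and their direction is likely, but not stated, to be transfected over untransfected. All signs would turn together under the other reading. In the lower part of the table the values of arrays 2 to 4 appear to lie a few rows away from those of array 1. This shift was inferred from the values and is stated by no label. Arrays 2 to 4 were read 3 rows higher in the middle part, which holds Pdpn and 1 probe each of Rdx and Layn. They were read 4 rows higher in the last part, which holds Cd44 and Msn. The other probes of Rdx and Layn lie in the first 6000 rows, which were read without an offset.

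ERM proteins tie the actin cortex to the plasma membrane. Their amino-terminal FERM domain holds the cytoplasmic tails of membrane proteins, their carboxy-terminal end holds actin filaments, and phosphorylation and phosphoinositides open the folded, inactive form. Cd44 is the main cell surface receptor for hyaluronan, a long glycosaminoglycan of the matrix, and its tail binds ERM proteins. Podoplanin is a small mucin-like glycoprotein whose tail binds ezrin and moesin and whose outer part binds the platelet receptor Clec1b. Layilin is a membrane protein with a C-type lectin domain that binds hyaluronan outside the cell and talin, merlin and radixin inside it.

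The sequences upstream of 3 of these genes are shown because Pdpn and Cd44 had the largest means above 0 and Msn was the member below 0. Each is the stretch of 250 bases before a transcript start, 5′ to 3′ on the strand of the gene, from RefSeq (GRCm38.p6). For Cd44 4 of these bases lie inside the annotated gene span, which begins further upstream, and for Pdpn and Msn 0 do. All 5 genes had at least 1 entry there. Capitals mark GC boxes (GGGCGG on either strand), the binding sequence of Sp1.
Cd44, chr2:102901666-102901915, minus strand: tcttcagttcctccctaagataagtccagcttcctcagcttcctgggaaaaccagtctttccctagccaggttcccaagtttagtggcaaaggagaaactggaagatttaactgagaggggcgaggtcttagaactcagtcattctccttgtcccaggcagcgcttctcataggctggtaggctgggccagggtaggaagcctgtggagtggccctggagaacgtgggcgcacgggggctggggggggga
Pdpn, chr4:143299565-143299814, minus strand: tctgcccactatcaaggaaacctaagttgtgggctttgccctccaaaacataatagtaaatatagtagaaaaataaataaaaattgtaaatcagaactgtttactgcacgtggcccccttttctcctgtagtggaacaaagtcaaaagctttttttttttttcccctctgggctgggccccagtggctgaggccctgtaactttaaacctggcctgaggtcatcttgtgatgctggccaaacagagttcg
Msn, chrX:96095795-96096044, plus strand: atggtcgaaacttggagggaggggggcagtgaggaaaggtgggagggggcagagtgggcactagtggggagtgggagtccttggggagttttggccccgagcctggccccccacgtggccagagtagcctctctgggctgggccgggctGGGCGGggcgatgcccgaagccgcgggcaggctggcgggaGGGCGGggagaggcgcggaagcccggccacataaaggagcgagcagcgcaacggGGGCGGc
The Msn stretch held 3 GC boxes, none overlapping, and those of Cd44 and Pdpn held 0. The stretch of Layn, a gene above 0, also held 3 and both stretches of Rdx held 0, so the count did not follow the sign of the ratio. Of the Layn stretch 115 bases lie inside the annotated gene span, with the boxes 6 and 94 bases before the transcript start. All 250 bases of 1 Rdx stretch lie inside its gene span. At least 1 box lay in 32.7% of 32851 upstream stretches of this length. G and C made up 71.6% of the Msn stretch, 56.4% of that of Cd44, 43.2% of that of Pdpn and 61.2% of that of Layn, against a median of 52.4%. No match to the AP-1 sequence TGANTCA or to the TEAD sequence GGAATG, searched on both strands, lay in the stretches of the 5 genes, and 6.75% and 12.6% of all stretches held one. The array data do not measure the use of these sequences.

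Of the 5 genes, 4 were above 0 on all 4 arrays (Rdx, Cd44, Pdpn and Layn, the last 2 with very uneven values) and 1, Msn, was below 0 on all 4. Over all 6327 genes 9.58% were above 0 on every array and 13% below 0 on every array. Nothing follows from setting these counts side by side, because the members were picked from these ratios. The median gene had a mean log2 ratio of -0.08 and an SD between arrays of 0.70.

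**Figure D1:**
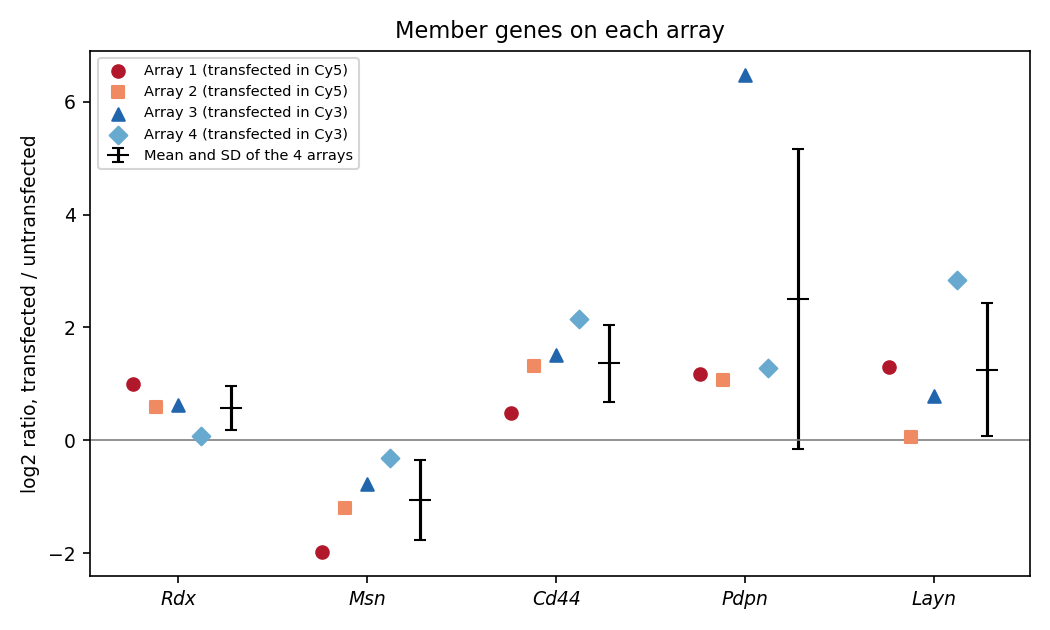
Log2 ratio (y axis) of each member gene on each array, as the mean of its probes, with the mean and SD of the 4 arrays beside them; colours mark the dye of the transfected sample. Msn lies below 0 on every array, and Pdpn has 1 value of 6.48 above 3 values between 1.07 and 1.27.

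The 2 measured ERM proteins lay on opposite sides of 0. Msn, which encodes moesin, had log2 ratios of -1.98, -1.19, -0.77 and -0.31 on arrays 1 to 4. The 2 arrays with the transfected sample in Cy5 were the lower ones, with a mean of -1.59 against -0.54 in Cy3. The share of all genes that split by dye in this way was not counted. A dye effect on Msn was not tested. The mean was -1.06 ± 0.71 (SD, n = 4 arrays), a 2.09-fold lower level in the transfected line, and 6.76% of all genes had a lower mean. After each array was centred on its median, the value on array 4 was -0.15 and all 4 stayed below the array median. Without array 1 the mean was -0.76.

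Rdx, which encodes radixin, had 1.01, 0.59, 0.62 and 0.07 on arrays 1 to 4 as the mean of its probes. Array 1 was the highest and array 4 was near 0. The mean was 0.57 ± 0.38 (SD, n = 4 arrays), a 1.49-fold higher level, and 12% of all genes had a higher mean. The probes of Rdx differed. The one in the first rows had 2.43, 0.66, 1.22 and 0.45, all above 0, with a mean of 1.19 ± 0.89 (SD, n = 4 arrays). The one in the middle part had -0.42, 0.51, 0.02 and -0.31, with a mean of -0.05 ± 0.42 (SD, n = 4 arrays). The gene's position above 0 thus came from 1 of its probes.

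Within an array, the difference between genes is free of that array's constant. Rdx exceeded Msn by 2.98, 1.78, 1.39 and 0.38 on arrays 1 to 4, a mean difference in log2 ratio of 1.63 ± 1.08 (SD, n = 4 arrays). With the Rdx probe of the middle part alone the differences were 1.56, 1.71, 0.79 and 0.001, so on array 4 that probe and Msn had the same ratio. Ezr, which encodes ezrin, the other member of the family, had a value on 2 arrays only, 0.19 on array 1 and 0.31 on array 4. It entered no comparison.

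The hyaluronan receptor gene Cd44 was above 0 on every array, with 0.49, 1.32, 1.52 and 2.15 on arrays 1 to 4. Array 1 was the lowest, and both arrays with the transfected sample in Cy3 lay above both in Cy5 (means of 1.83 and 0.90). As for Msn, the share of all genes that split in this way was not counted. The mean was 1.37 ± 0.68 (SD, n = 4 arrays), a 2.58-fold higher level in the transfected line, which placed Cd44 at rank 102 from the top of 6327 genes. The array has 1 probe for Cd44, so splice forms with variable exons could not be told from the standard form. Cd44 exceeded Msn, whose product binds its tail, by 2.46, 2.52, 2.29 and 2.46 on arrays 1 to 4. This difference in log2 ratio of 2.43 ± 0.10 (SD, n = 4 arrays) varied less between arrays than either gene, and was singled out after the values were seen. On arrays 2 to 4 it rests on the inferred offset of 4 rows, which both probes share. As deposited, the mean of Cd44 lay below that of Msn (-1.22 and -0.82).

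Pdpn had 1.18, 1.07, 6.48 and 1.27 on arrays 1 to 4. Arrays 1, 2 and 4 lay close together, and array 3 stood far above them; its value was the third highest of 15509 on that array. The mean of 2.50 ± 2.66 (SD, n = 4 arrays) had an SD larger than itself, and rank 4 from the top among all genes rested on array 3. Without array 3 the mean was 1.17 ± 0.10 (SD, n = 3 arrays), a 2.25-fold higher level. The orientation means were 1.12 in Cy5 and 3.88 in Cy3, the latter raised by array 3.

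Layn, which encodes the other hyaluronan-binding member, had 1.31, 0.07, 0.79 and 2.84 on arrays 1 to 4 as the mean of its probes. Array 4 was highest and array 2 was near 0. The mean was 1.25 ± 1.18 (SD, n = 4 arrays), and without array 4 it was 0.72 ± 0.62 (SD, n = 3 arrays). Its probe in the first rows had 2.07, 0.48, 0.79 and 6.11, and the last of these was the third highest of 18085 values on array 4. Its probe in the middle part had 0.54, -0.35 and -0.42 on arrays 1, 2 and 4 and no value on array 3, so that array's value is the first probe alone. The probe means were 2.36 and -0.07.

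**Figure D2:**
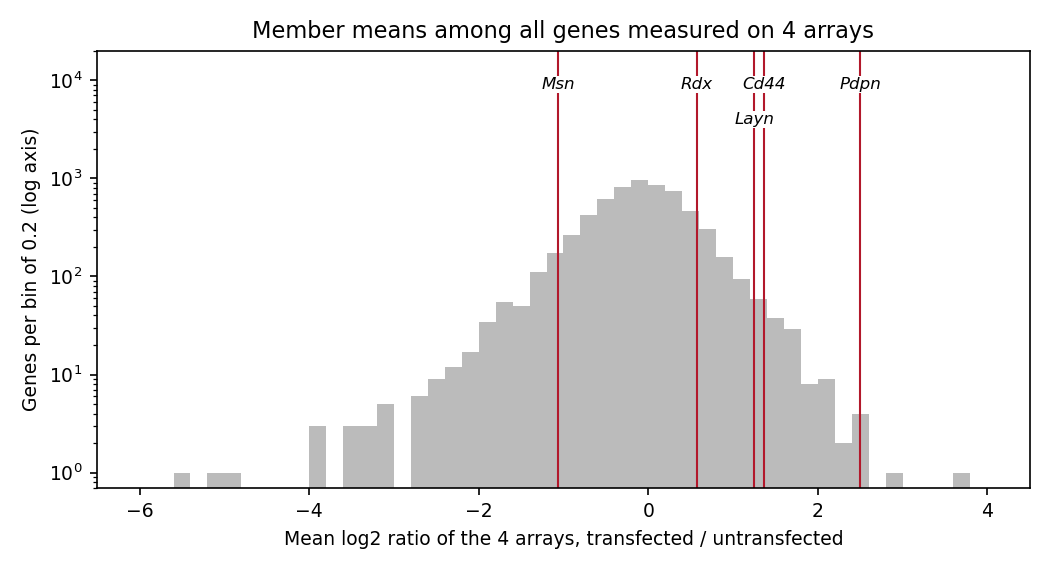
Histogram of the mean log2 ratio of the 4 arrays (x axis) over 6327 genes, with the number of genes per bin on a log axis; vertical lines mark the member genes. Pdpn lies at 2.50 near the upper end, Cd44 and Layn at 1.37 and 1.25, Rdx at 0.57 and Msn at -1.06.

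In order of their means the genes ran Pdpn, Cd44, Layn, Rdx and Msn. Pdpn exceeded Cd44 on 2 of 4 arrays, with a mean difference in log2 ratio of 1.13 ± 2.63 (SD, n = 4 arrays), and Layn exceeded Cd44 on 2 of 4 arrays, with -0.12 ± 1.04 (SD, n = 4 arrays). The order of these 3 genes was thus within the spread between arrays. Rdx was below Cd44 on 3 of 4 arrays (-0.80 ± 1.06, SD, n = 4 arrays).

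The disagreement between probes could be set beside that of other genes. A total of 883 genes had a probe in the first rows and another in the lower rows, each with at least 3 arrays. Several probes of a gene in 1 part were averaged first, whereas Rdx and Layn have 1 in each part. The shares below are thus not a comparison of single probes only. Across these genes, which share arrays and are not independent, the probe means had a Pearson r of 0.33 and a Spearman coefficient of 0.24, and 59.9% of genes had the same sign in both. The median gap between both probe means was 0.48. Rdx had a gap of 1.24, which 14.4% of genes exceeded, and 0.70 without array 1. Layn had one of 2.44, which 1.70% exceeded, and 1.01 without array 4, where the probe means were 1.11 and 0.10. The lower Layn probe has no value on array 3, so both Layn gaps compare means over unlike arrays. Without array 3, where each probe has 3 values, the gap was 2.96.

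**Figure D3:**
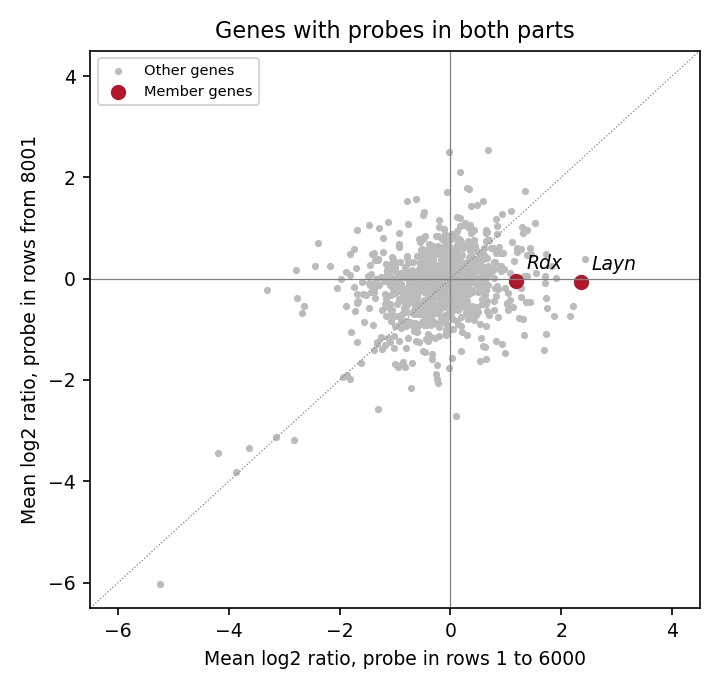
Mean log2 ratio of a gene's probes in the first 6000 rows (x axis) against those in the lower rows (y axis). Points are 883 genes, the lower rows were read with the row offset, and several probes in 1 part were averaged. Red points are Rdx and Layn, with 1 probe in each part, and the dotted line marks equal values. Both member genes lie to the right (1.19 and 2.36) at a height near 0.

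The values of Cd44, Pdpn and Msn, and the differences that use them, depend on the rows from which arrays 2 to 4 were read. As deposited, with no offset, Cd44 would have 0.49, -0.61, -2.31 and -2.44, a mean of -1.22 with the opposite sign. Pdpn would have 1.18, 0.43, -0.19 and 0.91 (mean 0.58), and Msn -1.98, -0.58, -0.99 and 0.25 (mean -0.82). An offset of 3 instead of 4 rows would give Cd44 a mean of -0.21 and Msn one of -0.64. For Pdpn, read at 3 rows, an offset of 2 rows would give -1.19 and one of 4 rows -0.06, both without a value on array 3. An offset of 5 rows would give Pdpn 0.33. Array 1 is read from its own row under every offset, and there Cd44 and Pdpn were above 0 (0.49 and 1.18) and Msn below (-1.98). Among the 19193 values of that array Cd44 had rank 5854 from the top, Pdpn 1530 from the top and Msn 436 from the bottom. The only Cd44 value that no offset touches was thus not among the highest.

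The rows around each probe were therefore compared at offsets of 0 to 6 rows, within 500 rows on each side and inside the same part of the table. Around Cd44 the mean Spearman coefficient of array 1 with arrays 2 to 4 was 0.156 at the offset of 4 rows, over 445 to 510 rows, and at most 0.013 at the other offsets. Around Msn it was 0.154 at 4 rows and at most 0.026 elsewhere. Around Pdpn it was weaker, 0.062 at 3 rows against at most 0.033 elsewhere. At the probes of Rdx and Layn too, the highest coefficient was at the offset used here, 0 rows in the first part (0.071 and 0.154) and 3 rows in the middle part (0.088 and 0.066). These coefficients are small at every offset, and they describe neighbouring rows, not the member's own row. The offsets were themselves inferred from these columns, so the coefficients are no independent check on them. The signs of the means of Cd44 and Pdpn thus rest on inferred offsets.

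**Figure D4:**
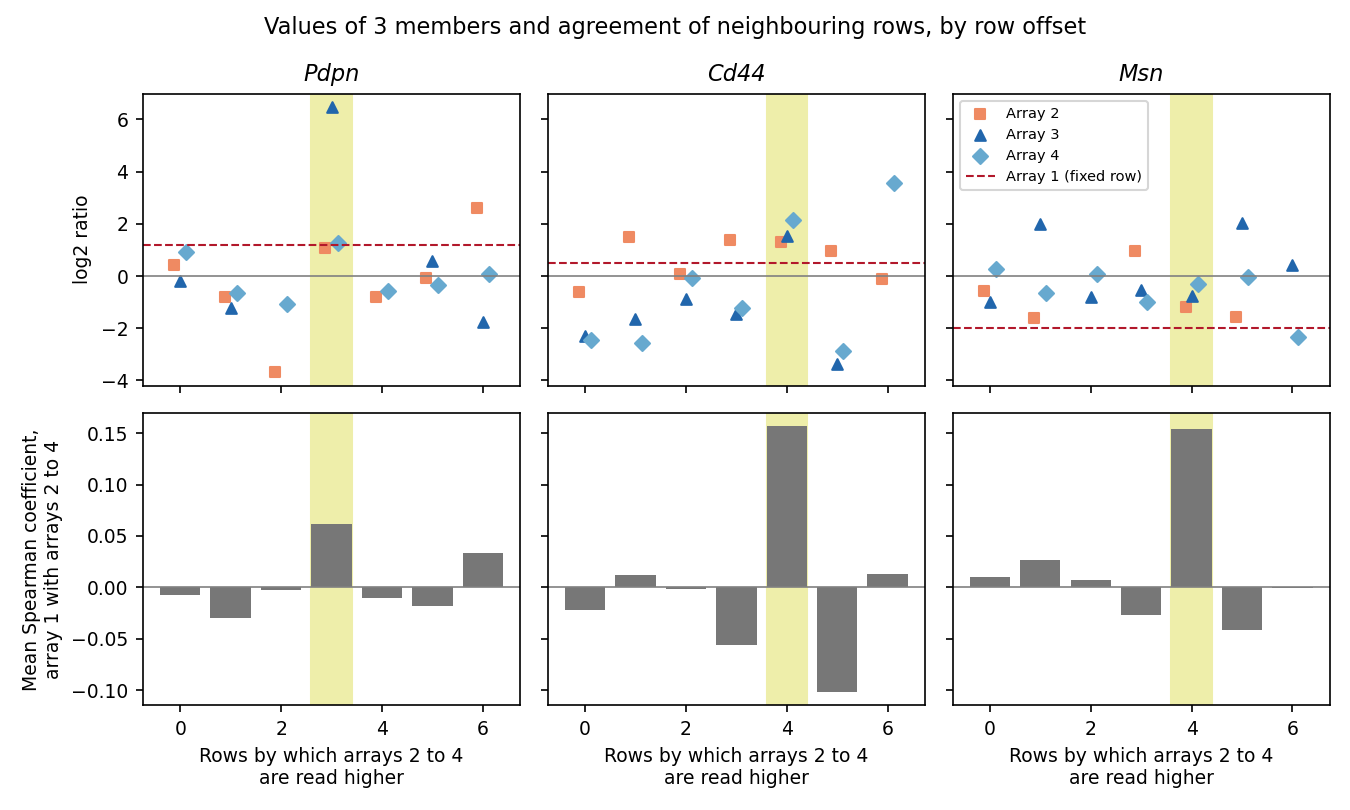
Upper panels: log2 ratio (y axis) of Pdpn, Cd44 and Msn on arrays 2 to 4 when read 0 to 6 rows higher (x axis), with array 1 as a dashed line. Lower panels: mean Spearman coefficient of array 1 with arrays 2 to 4 over the surrounding rows. The shaded offset is the one used, and it has the highest coefficient in each panel (0.062, 0.156 and 0.154). It was inferred from the same columns, so the panels are no independent check on it.

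The other genes of this system were taken from 5 lists of related genes. Of 142 listed genes 96 had a probe and 65 had a value on all 4 arrays. Limma called 0 of the 65 at an adjusted p under 0.05, as it called 0 of all 6327 genes (0%), with a smallest adjusted p of 0.105. At an unadjusted p under 0.05 there were 3 list genes above 0 and 8 below, where 4.05% and 7.49% of all genes were past that level (11.5%, or 730 genes, in either direction). On all 4 arrays 6 of the 65 list genes were above 0 and 11 below, where 9.58% and 13% of all genes were; the counts of single lists below are to be read against the same shares. No list gene can thus be said to differ between the lines by this test, and the values that follow are a description.

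In the list of FERM-domain proteins and other cortical linkers 12 genes were measured, and 1 of them, Ebag9 (mean -0.13), is of neither kind. The median log2 ratio of the gene means was 0.07, against -0.08 over all genes. Nf2, which encodes merlin, the tumour suppressor closest to the ERM family, had -0.57, 0.25, 0.03 and 0.27, on both sides of 0, with a mean of -0.01 ± 0.39 (SD, n = 4 arrays). Frmd4a, which encodes a FERM-domain scaffold protein, was above 0 on every array with 1.60, 0.60, 1.48 and 1.39 and a mean of 1.27 ± 0.46 (SD, n = 4 arrays; limma, adjusted p = 0.338). Epb41l4a, which encodes a protein of the band 4.1 group, was below 0 on every array, with a mean of -0.91 ± 0.39 (SD, n = 4 arrays). The other 9 genes had mixed signs.

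Of 12 other membrane partners of ERM proteins, 3 were below 0 on every array and 0 above, and the median was -0.11. Vcam1, an adhesion receptor of the immunoglobulin family, had -1.02, -0.77, -3.71 and -1.36, with array 3 the lowest, and a mean of -1.72 ± 1.35 (SD, n = 4 arrays). Bsg, which encodes basigin, had a mean of -0.82 ± 0.26 (SD, n = 4 arrays), and Ncam1, a neural cell adhesion molecule, one of -0.54 ± 0.16 (SD, n = 4 arrays).

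The 15 kinases, phosphatases and other regulators of ERM proteins had a median of -0.27, which was 0.06 without array 3. In this list 4 genes were above 0 on every array, of which 3 are described here, and 0 below. Map4k4 and Slk encode Ste20-like kinases that phosphorylate ERM proteins. Map4k4 had 0.86, 0.46, 0.52 and 2.81, with array 4 far above the others and a mean of 1.16 ± 1.11 (SD, n = 4 arrays), and Slk had a mean of 0.49 ± 0.32 (SD, n = 4 arrays). Cdc42bpb, which encodes a Cdc42-binding kinase, had a mean of 0.28 ± 0.18 (SD, n = 4 arrays).

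The 10 measured genes of hyaluronan synthesis, breakdown and binding had a median of -0.32, and 9 of the 10 had a mean below 0, as did 56.1% of all genes. Itih2 encodes a heavy chain that is attached to hyaluronan. It had -0.98, -4.37, -5.86 and -2.73, a mean of -3.48 ± 2.10 (SD, n = 4 arrays; limma, adjusted p = 0.303). Stab1, which encodes the scavenger receptor stabilin 1, had -3.92, -0.99, -0.58 and -1.83, and a mean of -1.83 ± 1.49 (SD, n = 4 arrays). Ugdh, whose product makes the UDP-glucuronic acid from which hyaluronan is built, had -0.24, -0.92, -4.90 and -0.16, so that its mean of -1.56 rested on array 3. Genes of this list with fewer than 4 values lay on both sides of 0. The hyaluronan synthase gene Has2 had a value on 1 array only, -3.54 on array 3. Acan (-1.25, n = 3 arrays) and Bcan (-4.54, n = 2 arrays) had means below 0. Ugp2 (1.18, n = 3 arrays) and Hyal2 (0.24, n = 3 arrays) had means above 0.

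A further list held 16 measured genes linked to Cd44 or podoplanin, most of them ligands, proteases or splicing factors. Egfr, Iqgap1, Hsp90aa1 and Yap1 in it are of other kinds. The median was 0.01, with 4 genes below 0 on every array and 1 above. Mmp14, which encodes a membrane-bound metalloproteinase that cleaves Cd44, had -0.65, -1.03, -1.70 and -4.36, a mean of -1.93 ± 1.68 (SD, n = 4 arrays). Mmp2, which encodes a gelatinase that the Mmp14 product activates, had a mean of -1.01 ± 0.61 (SD, n = 4 arrays). Lgals9, which encodes the lectin galectin 9, had -0.72, -1.28, -1.68 and -1.93, a mean of -1.40 ± 0.53 (SD, n = 4 arrays; limma, adjusted p = 0.303). Psen2, which encodes a presenilin of the gamma-secretase complex, had -0.09, -0.70, -2.72 and -0.36. Ccl21a, which encodes a chemokine that binds podoplanin, was above 0 on every array with 0.69 ± 0.51 (SD, n = 4 arrays).

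**Figure D5:**
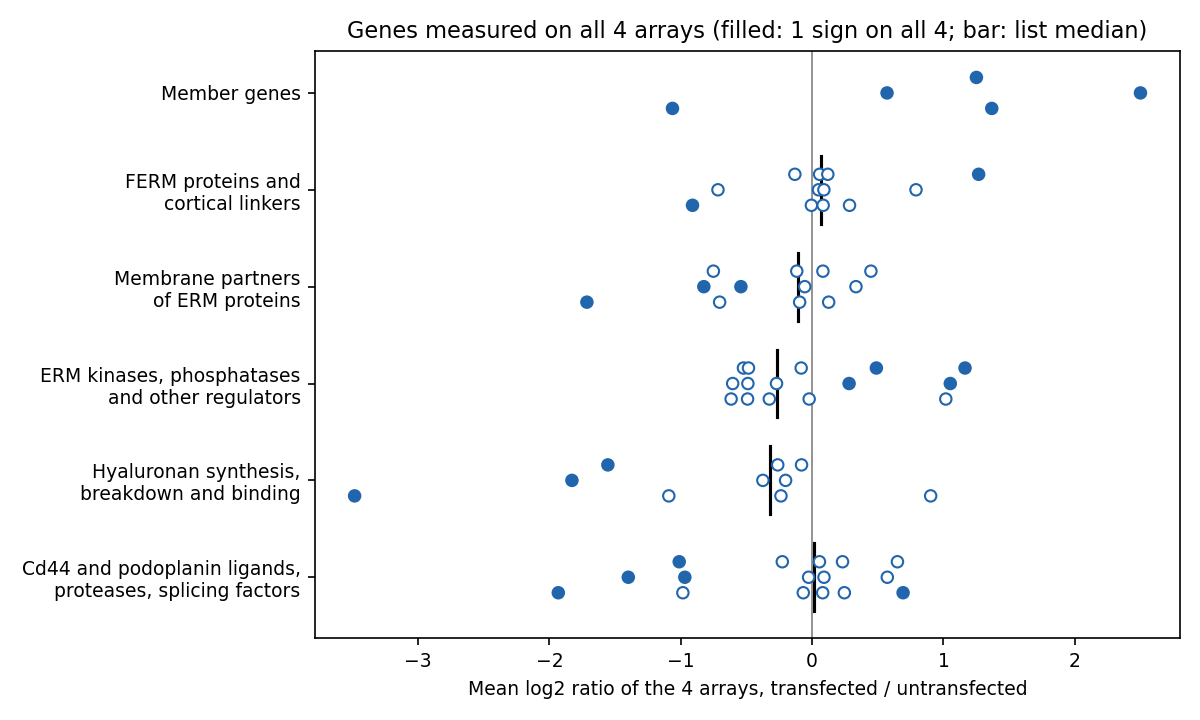
Mean log2 ratio of the 4 arrays (x axis) for the 5 member genes and for the genes of each related list (rows); filled points had 1 sign on all 4 arrays and bars mark list medians. The list medians lie between -0.32 and 0.07, and Itih2 at -3.48 is the lowest point.

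A ratio holds no level, so neither the fibroblast identity of the cells nor the presence of other cells could be checked here. Of 12 fibroblast markers 7 were measured on all 4 arrays, with 1 above and 3 below 0 on every array. The former was Vim (0.66 ± 0.18, SD, n = 4 arrays). The latter were the collagen genes Col1a1 (-4.91 ± 1.46, SD, n = 4 arrays) and Col1a2 (-3.36 ± 0.69, SD, n = 4 arrays), which lay far lower than any member gene, and Fap (-0.36 ± 0.25, SD, n = 4 arrays). The fibroblast markers were not lower as a group: 4 had a mean above 0 and 3 below, and the median of the means was 0.24. Their medians over the arrays ran from -0.73 to 0.34. The collagen gene Col3a1 had mixed signs, with a mean of 0.89 ± 1.36 (SD, n = 4 arrays). Cd44 and Pdpn are also expressed by other cell types. Of the epithelial markers 3 were measured, with medians from -0.40 to 1.26 over the arrays; of the leukocyte markers 2, with medians from -1.02 to -0.37; and of the endothelial markers 3, with medians from -0.59 to 0.60. Limma called 0 of these markers at an adjusted p under 0.05, and at an unadjusted p under 0.05 there were 2 fibroblast markers (Col1a1 and Col1a2) and 1 leukocyte marker below 0 and 1 epithelial marker above 0. Their part in the values of the member genes was not tested.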

How the data were processed

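The deposited values are 4 columns of log2 ratios, 1 per array, for 20355 probes. How the authors analysed the images, corrected background and normalized was not stated in the sources used here. Probes were named from the platform annotation, with symbols updated by gene identifier (GRCm38.p6). Values beyond 15 either way were dropped, of which 0 belonged to the member genes. Arrays 2 to 4 were read 3 or 4 rows higher in the lower parts, and 2300 rows with an unclear offset were left out. Where a gene had several probes, their mean on each array was used.

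All 6327 genes with 4 values were fitted together with limma 3.58.1 (lmFit and eBayes, mean and dye term), adjusted by Benjamini-Hochberg at 0.05; the code was tested on simulated data. No intensities were used, so the number of arrays limits the precision.

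The member genes and lists were chosen with earlier results of these data known. Members are described without a test. In each list Ezr, Nf2 and Erbb2, where measured, and up to 5 genes with 1 sign on all 4 arrays, by size of mean, were named. Other genes were named after their values were seen: Ebag9, the hyaluronan genes with fewer than 4 values, Egfr, Iqgap1, Hsp90aa1, Yap1 and the fibroblast markers. Of the genes this rule names, 1 is not reported here. Genes were not ranked by likeness to a member, since the arrays repeat 1 comparison. Alternatives covered left-out arrays, the dye term, centring, scaling, rows, capped ratios, variances, missing arrays and single probes.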

Additional observations from a re-analysis of the deposited data

Results flagged for a closer look

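A total of 31 sets of 4 array values were checked for 1 array far from the other 3, and chance alone marks about 1 in 20 such sets; many of these genes were named because their means were large. Pdpn was marked for array 3, with a gap of 0.961 of the whole range. Map4k4 was marked for array 4 (0.8291) and Ugdh for array 3 (0.840).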

How the results depend on the processing

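Of 71 member means under other settings 21 were identical, mostly because the setting could not touch them, 41 moved by less than 1 SD, 3 by more, and 6 turned their sign. For Pdpn 1 SD is 2.66, so its mean of 0.58 with rows as deposited counts among the small moves. Rows as deposited gave Cd44 -1.22 and Rdx 0.081, and reading the last part 3 rows higher gave Cd44 -0.21; that reading and the median over arrays were added after the data were seen. Single probes gave Rdx 1.19 (first 6000 rows) and -0.048 (lower rows), and Layn -0.074 in the lower rows. Without 1 array the means ranged from 1.11 to 1.66 for Cd44, 0.72 to 1.65 for Layn, -1.31 to -0.76 for Msn, 1.17 to 2.98 for Pdpn and 0.43 to 0.74 for Rdx.

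Limma, which called 0 genes, called 6 when the dye term was dropped, 6 with each probe on its own and 3 with arrays scaled to a common spread; none of these was in a related list. The 730 genes at an unadjusted p under 0.05 became 355 without array 2, 981 without array 4 and 276 in the first 6000 rows, where fewer genes were tested. Without 1 array, genes needed values only on the arrays kept, so those counts are not out of the same set of genes. The list medians lay near 0. That of the genes linked to Cd44 or podoplanin became -0.034 as deposited, -0.069 in the first rows, -0.0042 in the lower rows and -0.24 to 0.20 without 1 array. That of the FERM list became -0.0075, -0.0055 in the first rows, and -0.059 to 0.21 without 1 array. The kinase list had 0.26 in the lower rows and -0.40 to 0.061 without 1 array, the membrane partners -0.25 in the first rows and -0.19 to -0.10 without 1 array, and the hyaluronan list -1.09 in the first rows and -0.59 to -0.22 without 1 array. Row choices and left-out arrays also changed list members, and the cause of these moves was not tested. No paired analysis was possible because each array is already a ratio of both lines and there is 1 group.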
